A study of Mus musculus with 6 samples.

Results

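To examine how the genes of glucose use stood in muscle with reduced Yap, 38 genes of glucose uptake, glycolysis and glycogen metabolism were looked up by symbol in the deposited table of read counts, and 37 of them were found among its 13226 genes. Pgam1 had no row. The table came from 6 whole tibialis anterior (TA) muscles of male C57BL/6 mice aged 8 weeks, taken 7 days after intramuscular injection. The 3 Yap-shRNA muscles received AAV6:Yap-shRNA, an adeno-associated viral vector of serotype 6 that carries a short hairpin RNA against Yap. The 3 control muscles received AAV6:LacZ-shRNA according to the vector label, whereas their titles name an empty vector. Control and treated TA muscles were contralateral muscles of 3 animals, but no label states that a replicate number is an animal, so p-values measure the spread between these muscles. The vector backbone carries the CMV promoter, which is not restricted to muscle fibres, and whole muscle also holds vessels, nerve, connective tissue and blood cells.

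Glucose enters a muscle fibre through transporters of the Slc2a family, is phosphorylated by hexokinase and is then either burnt through glycolysis to pyruvate and lactate or stored as glycogen. The TA of the mouse is built mainly of fast fibres, which rely on glycolysis and on glycogen breakdown for short bursts of work. Several steps are served by a muscle isozyme and by other isozymes that prevail in non-muscle tissues, so isozymes were compared in pairs.

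Library totals ranged from 11987167 to 12710393 counts. Yap1 stood at 65.3 to 71.2 CPM (counts scaled to the TMM-corrected library size) in control muscles and at 23.9 to 39.5 CPM with Yap-shRNA. Its log2 fold change was -1.10 (standard error 0.16), with an adjusted p = 0.436 in edgeR's quasi-likelihood fit. No gene of the 13226 had an adjusted p under 0.05 in that test (0.0% of genes called), and 232 (1.75%) had an unadjusted p under 0.05. DESeq2 and edgeR's likelihood ratio test each called 5 genes (0.0378%), Yap1 among them and none of the 37. Myosin levels were those of a fast muscle, which need not be the TA. Myh4, the myosin of the fastest fibres, ranged from 30258 to 35689 CPM, against 0.691 to 3.10 CPM for Myh7, the slow myosin. One muscle of each group stood apart in non-muscle transcripts. Summed fibroblast markers (6 genes) were 2559 CPM in control 1 and 2971 CPM in Yap-shRNA 3, against 1255 to 1506 CPM in the other 4 muscles, and summed adipocyte markers (5 genes) were 90.5 CPM in Yap-shRNA 3 against 13.1 to 26.0 CPM elsewhere.

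None of the 37 genes passed the threshold of 0.05 on the adjusted p (edgeR's quasi-likelihood test; each adjusted p was 1.00), and 1 of them, Slc2a1, had an unadjusted p under 0.05 (0.885% of all genes did so with a higher value and 0.869% with a lower one). Their log2 fold changes, Yap-shRNA against control, lay between -0.20 for Slc2a3 and 0.36 for Slc2a1. The median was -0.06, against -0.0029 over all genes tested. Of the 37, 25 (67.6%) were below 0, against 51.1% of all genes. An absolute log2 fold change of at least 0.25 was seen for 3 of the 37 (Slc2a1, Pfkfb3 and the gene listed as Pgm1), against 15.0% of all genes. The unadjusted 95% interval of the difference, from the fit with group as its only term, included 0 for 36 of the 37 genes. It lay wholly within a 1.5-fold change in either direction for 30 genes and within a 1.3-fold change for 18. In this fit, larger differences were outside the interval for these genes and could not be told for the others.

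**Figure D1:**
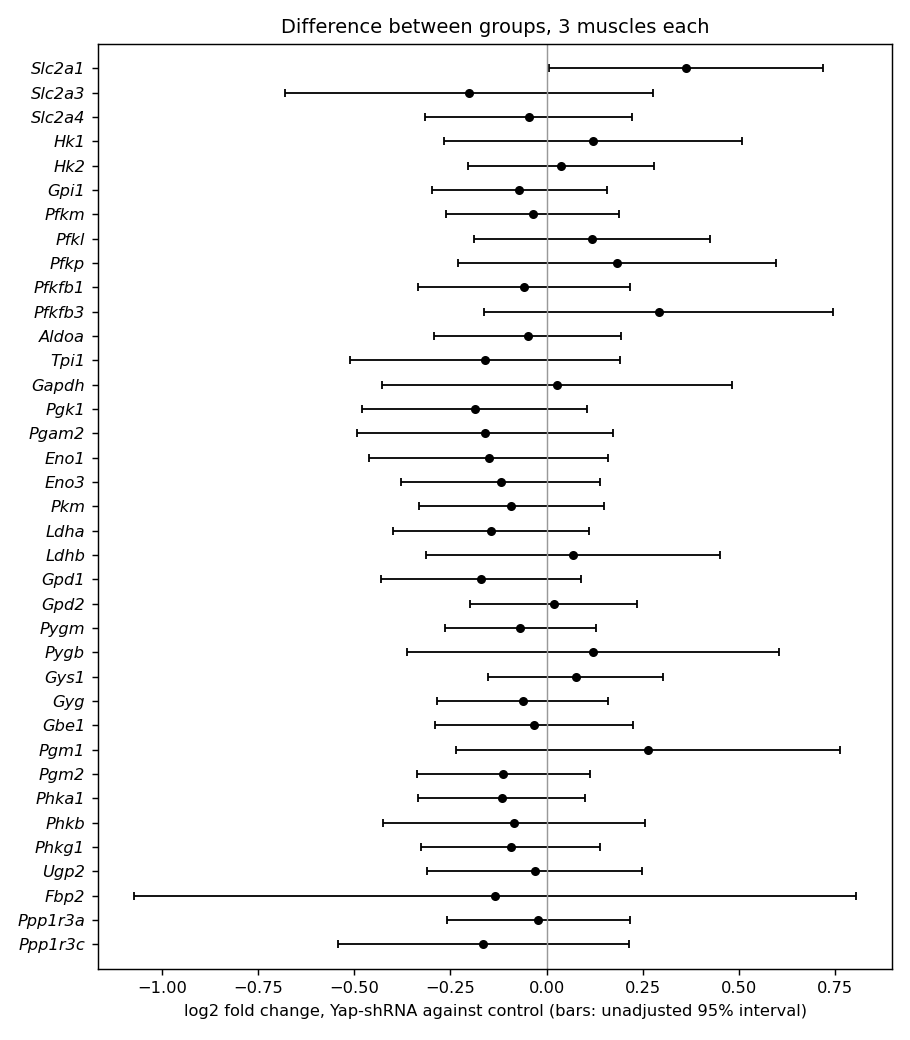
Log2 fold change of each of the 37 genes (x axis, Yap-shRNA against control) with its unadjusted 95% interval from edgeR's quasi-likelihood fit, 3 muscles a group. Slc2a1 is the one gene whose interval leaves out 0 (0.0069 to 0.72), and Fbp2 has the widest interval (-1.07 to 0.80).

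Groups that did not overlap were found for 1 of the 37 genes, Slc2a1, against 5.27% of all genes tested (2.56% higher and 2.71% lower with Yap-shRNA). Together the 37 genes took 5.86%, 6.35% and 6.13% of the counts of control muscles 1 to 3, and 5.86%, 5.70% and 6.05% of those of Yap-shRNA muscles 1 to 3. The groups overlapped in this share. The 5 most counted of them held 73.5 to 75.1% of the counts of all 37.

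The levels of the 37 genes spanned about 4 orders of magnitude once divided by the length of their annotated exons. Aldoa, the aldolase of muscle, had the highest level, at 6375 ± 696 CPM per kb of exon in control muscles (SD, n = 3). It was followed by Eno3, the muscle enolase (4999.9 ± 608 CPM per kb), Pgam2, the muscle phosphoglycerate mutase (3572 ± 739.7 CPM per kb), and Pygm, the muscle glycogen phosphorylase (3146 ± 54.1 CPM per kb). Pgam2 and Pygm did not differ beyond the spread of the control muscles. Next came Pfkm, the muscle phosphofructokinase, at 1583 ± 116 CPM per kb. At the other end were Pfkp, the platelet phosphofructokinase (0.522 ± 0.0963 CPM per kb), the gene listed as Pgm1 (1.05 ± 0.104 CPM per kb) and Slc2a3, the neuronal glucose transporter GLUT3 (1.08 ± 0.308 CPM per kb). The order at this end depends on the length used. With the length of the principal transcript, the lowest control means were 1.14 CPM per kb for the gene listed as Pgm1, 1.65 for Pygb and 1.69 for Pfkp. Slc2a3 then stood at 1.97 CPM per kb.

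**Figure D2:**
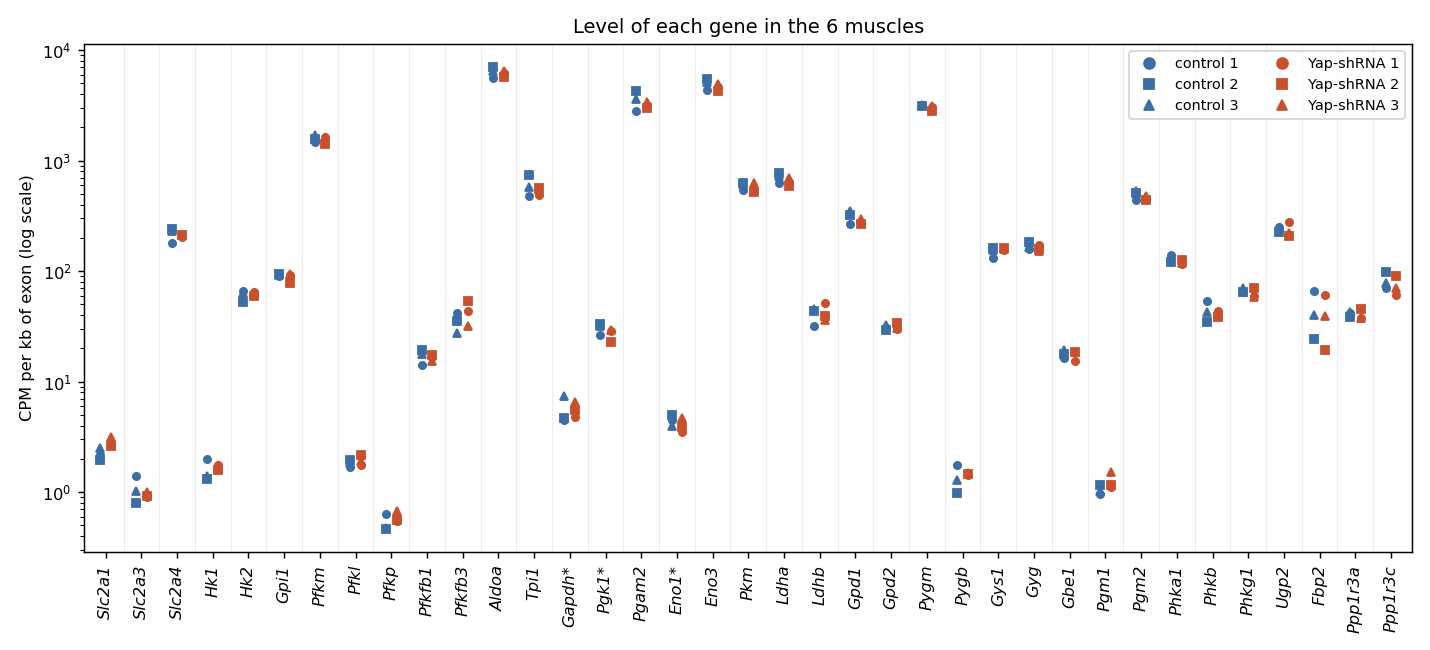
Level of each gene in CPM per kb of annotated exon (y axis, log scale), 1 point a muscle, blue for control and red for Yap-shRNA, with the replicate number as the shape. The muscle isozymes Aldoa, Eno3, Pgam2, Pygm and Pfkm lead in all 6 muscles. An asterisk marks Gapdh, Pgk1 and Eno1, whose transcripts share over 40% of their 50-base words with genes elsewhere.

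Glucose transporters were led by Slc2a4, which encodes the insulin-regulated transporter GLUT4. Control muscles 1 to 3 had 624, 834 and 794 CPM, and Yap-shRNA muscles 1 to 3 had 699.9, 743 and 737 CPM. The Yap-shRNA values all fell inside the range of the controls, and the log2 fold change was -0.05 (95% interval -0.32 to 0.22). Per kb of exon, Slc2a4 in control muscles was 98.2 times the level of Slc2a1 and 200.2 times that of Slc2a3. With principal transcript lengths it was 126 and 151 times.

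Slc2a1 (chr4:119108711-119137983 on the plus strand of GRCm38) encodes GLUT1, the transporter of endothelium and many dividing cells, which also serves basal uptake in muscle. Its raw counts were 97, 82 and 106 in the controls, against 114, 119 and 138 with Yap-shRNA. After scaling these were 7.55, 6.86 and 8.70 CPM against 9.56, 9.14 and 11.005 CPM, so each Yap-shRNA muscle was above each control muscle. The log2 fold change was 0.36 (standard error 0.16), unadjusted p = 0.0465 and adjusted p = 1.00 in edgeR's quasi-likelihood fit. The two-sided exact permutation test gave p = 0.10, which is the lowest value possible with 3 muscles a group. The unadjusted p was above 0.05 by the likelihood ratio test (0.0733) and by DESeq2 (0.0986), and ranged from 0.0326 to 0.155 with each muscle left out in turn, with log2 fold changes from 0.28 to 0.46. The p was under 0.05 only when control 3 was the muscle left out. It was 0.0747 and 0.122 when control 1 or 2 was dropped, and 0.0737, 0.0532 and 0.155 when Yap-shRNA muscle 1, 2 or 3 was dropped.

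The ratio of Slc2a1 to Slc2a4 within a muscle, which no scaling can alter, was without overlap. It holds the same Slc2a1 counts, so it is not a separate observation. The controls had log2 ratios of -6.37, -6.93 and -6.51, against -6.19, -6.35 and -6.07 with Yap-shRNA, a difference of 0.40 (pooled SD 0.23). It was 1 of 12 such ratios examined, and the other 11 overlapped.

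Markers of non-muscle cells were read beside Slc2a1. Summed endothelial markers (8 genes) were 452 to 518 CPM in control and 465 to 492 CPM in Yap-shRNA muscles. Summed erythrocyte markers (5 genes) were 120.0 to 203 CPM and 101 to 243 CPM, and summed Schwann cell markers (5 genes) were 53.9 to 104.8 CPM and 68.4 to 94.4 CPM. Each of these ranges overlapped. Summed macrophage markers were 237.9, 148.0 and 100.4 CPM in control muscles and 172.1, 207.4 and 222.0 CPM in Yap-shRNA muscles. All 10 macrophage markers had a log2 fold change above 0, with a median of 0.34, none past the threshold. Every marker of these lists had a row in the table. One macrophage marker, Cd163, was itself without overlap, at 2.93 to 6.07 CPM in the controls and 6.60 to 7.34 CPM with Yap-shRNA. Yap-shRNA 3, the muscle with the highest Slc2a1, also had the highest summed fibroblast (2971 CPM) and adipocyte (90.5 CPM) markers. Fibroblast markers were next highest in control 1 (2559 CPM), where Slc2a1 was 7.55 CPM. For these lists, the part in the values of Slc2a1 was not tested. In whole muscle, fewer cells of a type and less RNA per cell cannot be told apart. The annotation also places 3 other genes that overlap Slc2a1, none of which has a row in the table, and no strand setting is stated.

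Slc2a3 was 10.2, 5.77 and 7.47 CPM in control muscles and 6.54, 6.68 and 7.18 CPM in Yap-shRNA muscles. The controls enclosed the Yap-shRNA values, and the SD of its log2 level was 0.41 among controls and 0.07 among Yap-shRNA muscles. With a log2 fold change of -0.20, it had an interval of -0.68 to 0.28.

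Glucose is trapped in the cell by hexokinase. Hk2, the insulin-responsive muscle hexokinase, was 391, 314 and 377 CPM in control and 385, 355 and 369 CPM in Yap-shRNA muscles, and the Yap-shRNA values lay inside the range of the controls. Hk1, the widespread isozyme, was 17.0, 11.1 and 11.9 CPM in control and 15.1, 13.6 and 14.8 CPM in Yap-shRNA muscles, again inside. Per kb of exon Hk2 was 38.7 times Hk1 in control muscles. With the length of the principal transcript in place of all annotated exons this was 18.9 times, so the size of that ratio, though not its direction, depends on the length used.

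The control points of glycolysis are phosphofructokinase and the enzymes that make and remove its activator, fructose 2,6-bisphosphate. Pfkfb3, an inducible form of the latter with a high kinase activity, was 317, 268 and 209 CPM in control muscles and 328, 404 and 239 CPM in Yap-shRNA muscles. Its highest values were in Yap-shRNA 2 and 1, while Yap-shRNA 3 lay inside the control range. The log2 fold change of 0.29 (95% interval -0.16 to 0.75) was the second largest of the 37 and smaller than the spread among the 3 control muscles (SD 0.30 on the log2 scale). With a muscle left out the log2 fold change ran from 0.10 without Yap-shRNA 2 to 0.47 without Yap-shRNA 3, and was 0.44 without control 1 and 0.15 without control 3. Pfkfb1, the form of liver and muscle, ranged from 57.3 to 77.2 CPM in control and from 61.9 to 69.3 CPM in Yap-shRNA muscles.

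**Figure D3:**
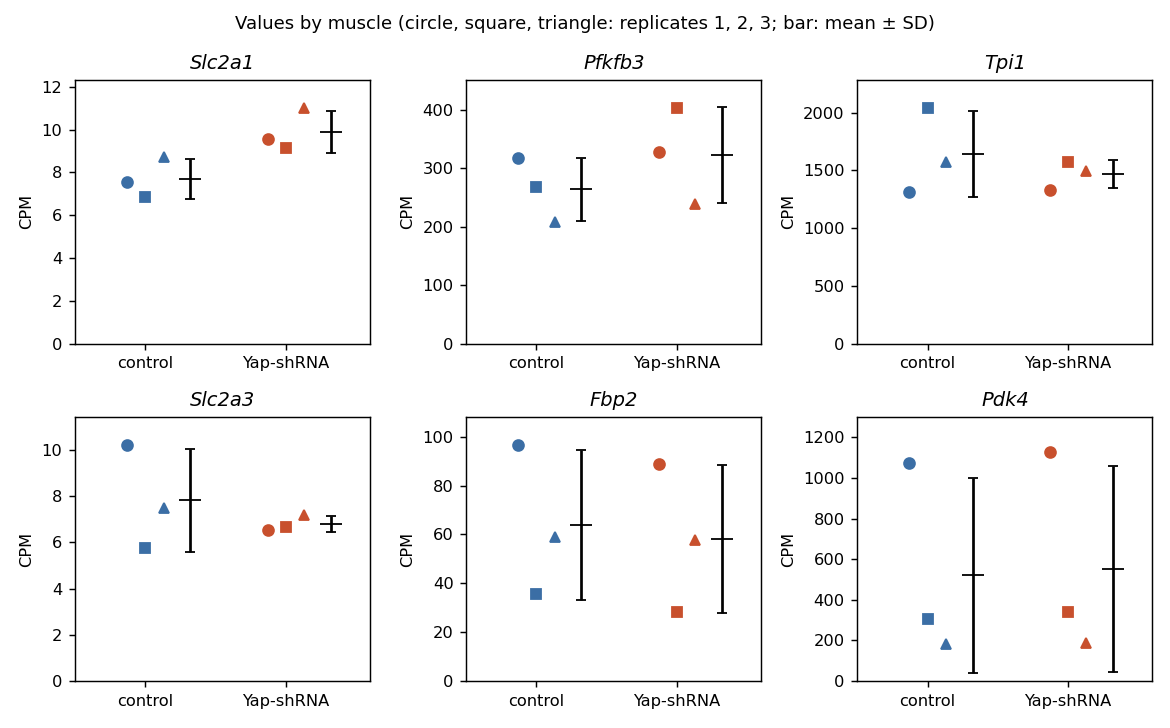
Scaled counts (CPM) of Slc2a1, Pfkfb3, Tpi1, Slc2a3, Fbp2 and Pdk4 in each muscle, with the mean and SD of each group beside the points and the replicate number as the shape. Slc2a1 is the one with no overlap between groups, and Fbp2 and Pdk4 are spread alike within both groups.

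Of the phosphofructokinase subunits, Pfkm ranged from 4914 to 5689 CPM in control and from 4726 to 5406 CPM in Yap-shRNA muscles. Pfkl, the liver subunit, ranged from 11.1 to 12.9 CPM in control and from 11.8 to 14.6 CPM in Yap-shRNA muscles, and Pfkp from 6.19 to 8.48 CPM and from 7.30 to 9.09 CPM. Per kb of exon Pfkm was 877 times Pfkl and 3033 times Pfkp in control muscles, or 569 and 1088 times with principal transcript lengths.

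From glucose 6-phosphate to lactate the path runs through Gpi1, Pfkm, Aldoa, Tpi1, Gapdh, Pgk1, the phosphoglycerate mutases, the enolases, Pkm and Ldha. Of these, 9 were followed as a chain: Gpi1 (glucose phosphate isomerase), Pfkm, Aldoa, Tpi1 (triose phosphate isomerase), Pgk1 (phosphoglycerate kinase), Pgam2, Eno3, Pkm (pyruvate kinase) and Ldha (lactate dehydrogenase A). The choice of these 9 was made after their values were seen, so their direction carries no test. Gapdh, which was not among them, had a log2 fold change of 0.03, so that 9 of 10 would be below 0 with it. All 9 had a log2 fold change below 0, from -0.19 for Pgk1 to -0.04 for Pfkm, none with an unadjusted p under 0.05, and in all 9 the groups overlapped.

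Most of these 9 enzymes, chosen with their values known, were highest or lowest in the same muscles. Control 2 had the highest value for 8 of the 9 enzymes, and control 3 for Pfkm. Yap-shRNA 2 had the lowest value for 6 of them and control 1 for the other 3. Tpi1 departed from this, with 101% of its mean in Yap-shRNA 2, the highest of the Yap-shRNA muscles. Of all 37 genes, 14 were highest in control 2. The lowest value was in control 1 for 11 of the 37, in Yap-shRNA 2 for 10 and in control 2 for 8. Relative to the mean of the 6 muscles, the median of the 9 enzymes was 91.9%, 115% and 107% in control muscles 1 to 3 and 97.3%, 88.2% and 102% in Yap-shRNA muscles 1 to 3. The 9 fast fibre markers summed to 96.5%, 108% and 104% of their mean in control and to 95.3%, 92.5% and 104% in Yap-shRNA muscles. Both were highest in control 2 and lowest in Yap-shRNA 2. All 9 fast fibre markers also had a log2 fold change below 0, with a median of -0.14, none past the threshold. The part of fibre make-up in the enzyme values was not tested.

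**Figure D4:**
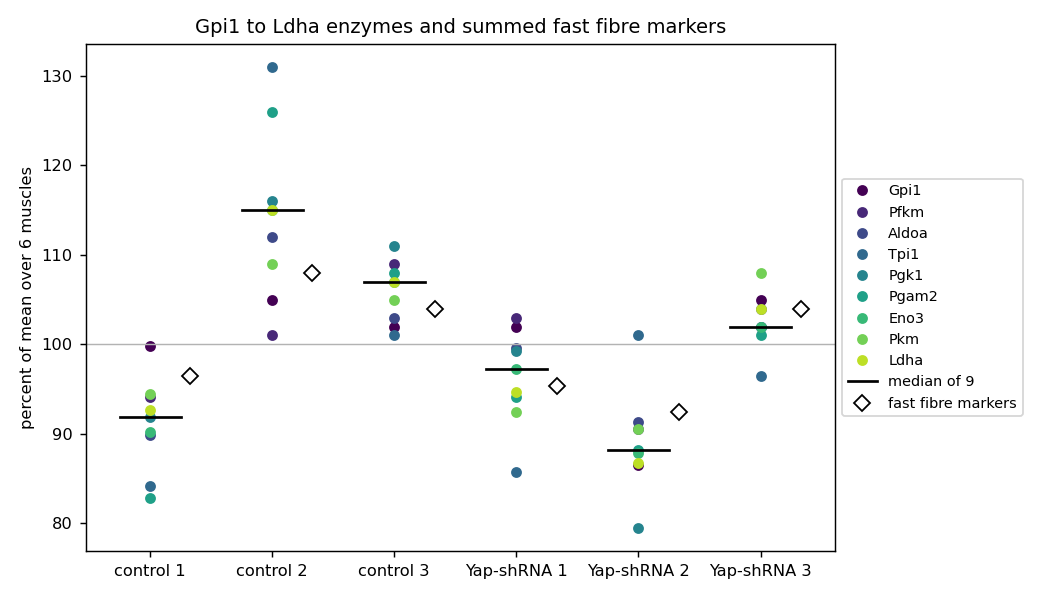
Level of the 9 enzymes from Gpi1 to Ldha in each muscle as a percentage of the gene's mean over the 6 muscles (y axis, which does not start at 0), with their median as a bar and the sum of 9 fast fibre markers as an open diamond. The median of the enzymes and the markers are highest in control 2 (115% and 108%) and lowest in Yap-shRNA 2 (88.2% and 92.5%).

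Aldoa was 16400.2, 20418 and 18856 CPM in control muscles and 18175, 16654 and 18972 CPM in Yap-shRNA muscles, and all Yap-shRNA values fell inside the control range. Tpi1 was the most variable of the chain among controls, at 1308, 2039.6 and 1571 CPM, against 1331, 1569 and 1498 CPM in Yap-shRNA muscles. Its log2 fold change of -0.16 had an interval of -0.51 to 0.19. Control 2 was well above the other 5 muscles.

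Eno3 was 7529, 9591 and 8965 CPM in control and 8119.8, 7336 and 8552 CPM in Yap-shRNA muscles. Yap-shRNA 2 was below every control, and the other 2 lay inside their range. Pgam2 was 2352, 3590.5 and 3058 CPM in control and 2673, 2505 and 2870.1 CPM in Yap-shRNA muscles, all inside. Ldha was 2063, 2557 and 2390.2 CPM in control and 2107, 1933 and 2305 CPM in Yap-shRNA muscles, with Yap-shRNA 2 the lowest of all.

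These overlaps changed most without control 1. The groups were then apart for 13 of the 37 genes, against 23.8% of all genes tested in the same fit. Leaving out another muscle set apart 2 to 5 of the 37, against 14.9% of all genes without control 2, 10.5% without control 3, 12.7% without either of Yap-shRNA 1 or 2, and 11.8% without Yap-shRNA 3. Leaving out a muscle also leaves fewer values to overlap. Of the 13 without control 1, 9 were lower in Yap-shRNA muscles (Slc2a4, Pgam2, Gpd1, Tpi1, Pfkfb1, Pgm2, Eno3, Pgk1 and Ldha) and 4 higher (Slc2a1, Pfkp, Pygb and Hk1), and none passed the threshold. Control 1 is the control with the highest summed macrophage and fibroblast markers. Its fast fibre marker sum was the lowest of the 3 controls, at 115292 CPM against 124555 and 128805 CPM. The part of these markers in the 13 was not tested.

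Lactate dehydrogenase B, the heart form encoded by Ldhb, ranged from 49.7 to 71.6 CPM in control and from 56.9 to 80.6 CPM in Yap-shRNA muscles. Per kb of exon Ldha was 17.5 times Ldhb in control muscles, or 27.3 times with principal transcript lengths. Gpd1, the cytosolic glycerol 3-phosphate dehydrogenase, was 793, 949 and 1036 CPM in control and 806, 788 and 872 CPM with Yap-shRNA, for a log2 fold change of -0.17 (95% interval -0.43 to 0.09). Yap-shRNA 2 was just below control 1. Gpd2, its mitochondrial partner in the glycerol phosphate shuttle, ranged from 191 to 215 CPM and from 194 to 220.1 CPM.

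The levels of Gapdh, Pgk1 and Eno1 are uncertain, because much of their sequence is shared with other genes. Gapdh, the glyceraldehyde 3-phosphate dehydrogenase that stands between Tpi1 and Pgk1, had 237, 233 and 374 counts in control and 236, 298 and 341 counts in Yap-shRNA muscles, or 5.53 ± 1.64 CPM per kb in controls (SD, n = 3). Its neighbour Tpi1 stood at 596 ± 135 CPM per kb. Of the 50-base words of the principal Gapdh transcript, 82.5% also occur in transcripts of other annotated genes elsewhere in the genome, 230 genes in all, of which 215 are pseudogenes. The share was 72.2% for Eno1, 68.0% for Pgk1 and 41.5% for Pgam1, the gene with no row. With 100-base words these shares were 78.0%, 59.0%, 67.0% and 39.7%. It was 0.0% for Eno3 and Pgam2. How reads that fit several places were counted, and the read length, are not given in the sources used here, and the part of shared sequence in these counts was not tested.

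For Gapdh and Pgam1, the coding stretch that the largest number of other genes share is shown as an example. Each is 50 bases of the principal GENCODE transcript, 5′ to 3′, and Pgam2, which shares none, is given by the first 50 bases of its coding sequence for contrast. Capitals mark bases found in other genes. That of Gapdh (bases 409 to 458 of 999 coding bases) is found in 87 other genes, 80 of them pseudogenes. That of Pgam1 (bases 451 to 500 of 762) is found in 3, all pseudogenes.
Gapdh: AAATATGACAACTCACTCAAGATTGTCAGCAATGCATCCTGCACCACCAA
Pgam1: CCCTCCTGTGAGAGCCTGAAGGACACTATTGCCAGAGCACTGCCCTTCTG
Pgam2: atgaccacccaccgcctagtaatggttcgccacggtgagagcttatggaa

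**Figure D5:**
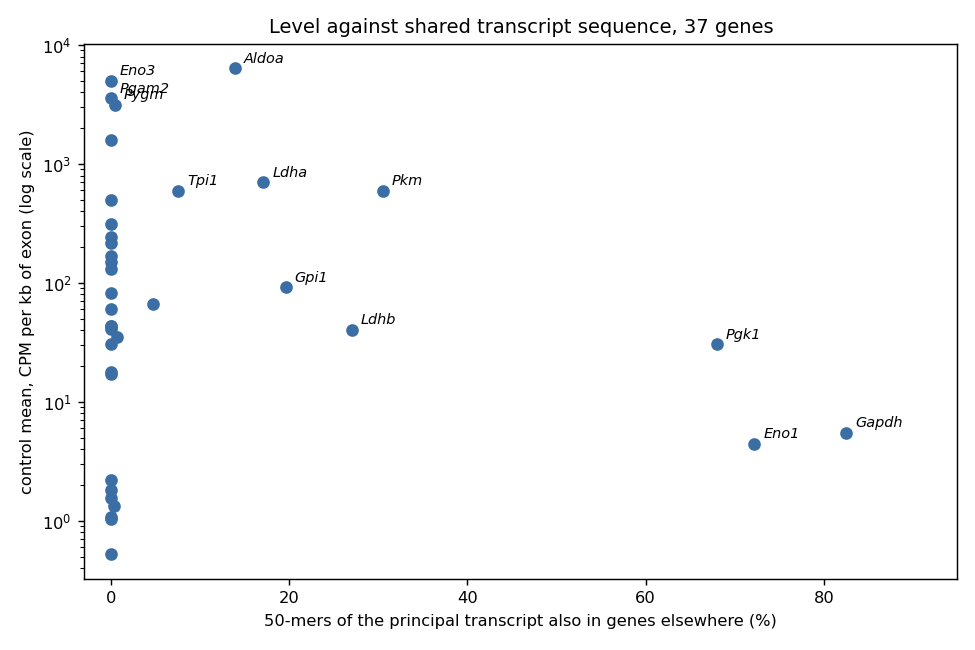
Control mean of each of the 37 genes in CPM per kb of exon (y axis, log scale) against the percentage of 50-base words of its principal transcript that also occur in genes elsewhere (x axis), 1 point a gene. Gapdh, Eno1 and Pgk1, at 82.5, 72.2 and 68.0%, lie at 5.53, 4.47 and 30.7 CPM per kb, while Aldoa, Eno3, Pgam2 and Pygm lie above 3000 CPM per kb at 13.9% or less. Low levels also occur without shared words, as for Pfkp and Slc2a3 (0.0%) at 0.522 and 1.08 CPM per kb. Pkm, at 30.5%, lies at 596 CPM per kb.

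The level of Eno3 per kb was 1118 times that of Eno1 in control muscles, or 469 times with principal transcript lengths, and the ratio is also as uncertain as the level of Eno1. Pgk1 was 59.5, 75.1 and 72.1 CPM in control and 64.3, 51.4 and 65.8 CPM with Yap-shRNA, for a log2 fold change of -0.19 (95% interval -0.48 to 0.10), with Yap-shRNA 2 below every control. Gapdh differed by 0.03 on the log2 scale (95% interval -0.43 to 0.48), and Eno1 by -0.15 (-0.46 to 0.16). Pkm, at 2615 to 3164 CPM over the 6 muscles, and Ldha share 30.5% and 17.1% of their 50-base words with other genes. In addition, 11 of the 37 genes, Aldoa, Pfkm, Tpi1 and Gapdh among them, overlap another gene of the table, and since no strand setting is stated, reads from the overlap could be counted for either.

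Glycogen breakdown was led by Pygm, which releases glucose 1-phosphate from glycogen. It was the steadiest of the 37 among controls, at 10168, 9934 and 10274 CPM, and stood at 9772, 9102 and 10089 CPM in Yap-shRNA muscles. Yap-shRNA 1 and 2 were below every control and Yap-shRNA 3 was inside their range, with a log2 fold change of -0.07 (95% interval -0.26 to 0.13). Pygb, the brain form, was 8.41, 4.68 and 6.24 CPM in control and 6.80, 7.06 and 7.18 CPM in Yap-shRNA muscles, inside the range of the controls. The kinase that activates phosphorylase is built of Phka1, Phkb and Phkg1 in muscle. Phka1, its regulatory alpha subunit, was 884, 751 and 813 CPM in control and 729, 780.0 and 747 CPM in Yap-shRNA muscles, of which 1 and 3 were below every control. Its log2 fold change was -0.12 (95% interval -0.33 to 0.10). The beta subunit gene Phkb ranged from 254 to 394 CPM in control and from 283 to 325 CPM in Yap-shRNA muscles, and the catalytic gamma subunit gene Phkg1 from 417 to 455 CPM and from 377 to 453 CPM.

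On the synthetic side, Gys1, the muscle glycogen synthase, was 634, 771 and 745 CPM in control and 737, 769 and 759 CPM in Yap-shRNA muscles, all inside the control range (log2 fold change 0.08, 95% interval -0.15 to 0.30). Ugp2, which makes the UDP-glucose that the synthase uses, was 774, 698 and 753 CPM in control and 859, 639 and 679.6 CPM in Yap-shRNA muscles, which enclosed the controls. Gyg, the primer protein glycogenin, ranged from 369 to 429.9 CPM and from 359 to 401 CPM, and Gbe1, the branching enzyme, from 88.2 to 104 CPM and from 81.3 to 99.7 CPM. Of the subunits that bring protein phosphatase to glycogen, Ppp1r3a ranged from 269 to 298 CPM in control and from 263 to 316 CPM in Yap-shRNA muscles. Ppp1r3c was 193, 268 and 214 CPM in control and 164, 246 and 192 CPM in Yap-shRNA muscles. In both groups muscle 2 was the highest and muscle 1 the lowest.

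Phosphoglucomutase links glycogen to glycolysis. The table's Pgm2 (ENSMUSG00000025791, chr4:99929414-99987294) is the gene that RefSeq names Pgm1, and its Pgm1 (ENSMUSG00000029171, chr5:64092950-64128351) is the one that RefSeq names Pgm2. The gene on chromosome 4 was 1297, 1486 and 1552 CPM in control and 1315, 1297 and 1396 CPM with Yap-shRNA, for a log2 fold change of -0.11 (95% interval -0.34 to 0.11). The gene on chromosome 5 had 32, 36 and 32 counts in control and 34, 39 and 49 counts with Yap-shRNA. The log2 fold change of 0.26 (95% interval -0.24 to 0.76) rests on these few counts, and the groups overlapped.

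Fbp2 (chr13:62836877-62858422), the muscle fructose bisphosphatase that runs the phosphofructokinase step backwards, varied most of the 37. Control muscles 1 to 3 had 96.4, 35.5 and 59.1 CPM, and Yap-shRNA muscles 1 to 3 had 88.8, 28.2 and 57.6 CPM, a 3.42-fold range over the 6. In both groups muscle 1 was the highest and muscle 2 the lowest, and muscles of the same number lay close together. Between groups the log2 fold change was -0.13 with a standard error of 0.42. Pdk4, the kinase that shuts pyruvate out of mitochondrial oxidation during fasting, also followed the numbers, at 1072, 307 and 181 CPM in control and 1129, 342 and 185 CPM in Yap-shRNA muscles, but with muscle 3 the lowest. Its log2 fold change was 0.09 (standard error 0.72).

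Genes around the pathway were counted in the same way. Of 91 further genes listed for pyruvate entry, lactate and sugar transport, other isozymes, glycogen, insulin and AMPK signalling and the pentose phosphate branch, 83 were in the table. None passed the threshold in either direction. Of the 83, 38 were above and 45 below 0, where 51.1% of all genes were below, and 2 had an unadjusted p under 0.05, against 1.75% of all genes. Groups did not overlap for 3 of the 83, G6pdx and Pgd higher and Slc2a8 lower, against 5.27% of all genes. All of these counts are near the shares over all genes. G6pdx, the first enzyme of the pentose phosphate branch, was 3.81, 3.43 and 3.45 CPM in control and 4.36, 5.91 and 6.62 CPM with Yap-shRNA. The log2 fold change was 0.66 (standard error 0.20), with unadjusted p = 0.00978 and adjusted p = 1.00 in edgeR's quasi-likelihood fit. All 3 Yap-shRNA muscles were above all controls. Stbd1, which anchors glycogen to membranes, was 90.1, 103 and 118 CPM in control and 73.9, 58.3 and 92.3 CPM with Yap-shRNA. For Stbd1 the log2 fold change was -0.47 (standard error 0.17), with unadjusted p = 0.0200 and adjusted p = 1.00 in the same edgeR fit. Yap-shRNA 3 lay inside the control range. The lactate exporter Slc16a3 ranged from 538 to 690.3 CPM in control and from 546 to 676 CPM in Yap-shRNA muscles.

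Yap acts on DNA through TEAD factors, which bind the letters CATTCC. RefSeq promoters of GRCm38.p6 were found for 35 of the 38 genes, and the 250 bases before the RefSeq start were searched on both strands. For some genes, Slc2a1 among them, that start lies inside the gene as placed by GENCODE, so part of the stretch searched is within it. CATTCC was in 2 of the 35 (5.71%), Eno3 and the table's Pgm2, against 12.6% of 32851 promoters of the same length. ACGTG, the core letters bound by the hypoxia factor, was in 14 of the 35, against 16.6% of all. CANNTG, the E-box, was in 74.3% against 66.2%, TATAAA in 5.71% against 12.4%, and the MEF2 letters CTAAAAATA in 0.0% against 0.469%. All promoters in the table entered the background, whatever their type of gene or base composition.

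The promoters of Eno3, the most counted member with CATTCC, and of Slc2a1, whose groups did not overlap, are printed 5′ to 3′ on the gene's strand. Capitals mark CATTCC, here read on the opposite strand, in Eno3 (chr11:70656926-70657175, plus strand) and ACGTG in Slc2a1 (chr4:119108495-119108744, plus strand), which holds no CATTCC. A match is a match of letters only.
Eno3: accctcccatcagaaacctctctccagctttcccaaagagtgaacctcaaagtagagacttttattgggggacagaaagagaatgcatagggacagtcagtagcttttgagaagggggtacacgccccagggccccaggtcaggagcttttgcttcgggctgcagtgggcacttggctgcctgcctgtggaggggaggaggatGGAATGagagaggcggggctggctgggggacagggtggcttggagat
Slc2a1: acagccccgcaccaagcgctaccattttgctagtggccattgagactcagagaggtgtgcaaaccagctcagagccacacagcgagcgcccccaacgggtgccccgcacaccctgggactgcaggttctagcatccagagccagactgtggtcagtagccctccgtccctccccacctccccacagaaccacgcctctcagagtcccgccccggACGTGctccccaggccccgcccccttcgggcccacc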

How the data were processed

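Poly(A)+ RNA of whole TA muscles was sequenced from Illumina TruSeq libraries. Per the labels, bcl2fastq 2.20.0.422 and the build GRCm38 were used, while the aligner, the counter and the strand setting are not given in the sources used here. The authors deposited raw read counts per gene, without normalisation, for 13226 genes, none with fewer than 60 counts over the 6 libraries. After TMM scaling, genes with a mean of at least 10 counts per sample (all of them) entered the quasi-likelihood test of edgeR 4.0.16 in R 4.3.3, with no term but group, with Benjamini-Hochberg adjustment over all genes and a threshold of 0.05. Standard errors were derived from the log2 fold change and its F statistic, and 95% intervals are unadjusted. The fit was tested on simulated data. Within a group, pairs of libraries differed 7.62 to 21.4 times as much as sampling alone gives (chi-square per degree of freedom), so each counted as 1 replicate. Exon lengths, positions and transcript sequences came from GENCODE M21 and promoters from RefSeq, both on GRCm38.

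Alternatives were DESeq2 1.42.0, the likelihood ratio test, limma-voom (limma 3.58.1), other scalings and count filters, a replicate block and leaving out each muscle. Principal transcript lengths and 100-base words were chosen after seeing the data. The genes, lists and tests were chosen with earlier results of these data known. Every gene found was described, and values were given in full for genes without overlap, the 5 with the largest absolute change, the 5 with the widest spread among controls and the most counted of each role. From the other lists, genes with an unadjusted p under 0.05, and Pdk4, were named by rule, and Slc16a3, Pgd, Slc2a8, Cd163, Myh4 and Myh7 were chosen after their values were seen. One sequence is not reported here.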

Additional observations from a re-analysis of the deposited data

How the results depend on the processing

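None of the 37 genes had an adjusted p under 0.05 under any setting tried. Over all genes the count was 0 by the quasi-likelihood test (232 at an unadjusted p under 0.05), 5 by DESeq2, 5 by the likelihood ratio test, and 0 to 1 with a muscle left out, the 1 without Yap-shRNA 3. The number of the 37 whose groups did not overlap was 1 in all scalings and filters and 2 to 13 with a muscle left out, with 13 without control 1. In the 296 fits of a gene under another scaling, test, filter or block, no log2 fold change changed sign. Some of these could not differ: all genes passed the count filter, so the fit without it repeated the main fit. The likelihood ratio test re-estimates the same log2 fold change, so its sign tells little. The replicate block, which pairs muscles of the same number, gave 0 genes, a median over the 37 genes of -0.051 and a log2 fold change of 0.36 for Slc2a1 (adjusted p 1.00). It took the standard error of Fbp2 from 0.42 to 0.10 that of Pdk4 from 0.72 to 0.096, that of Ppp1r3c from 0.17 to 0.094 and that of Pfkfb3 from 0.20 to 0.12 (unadjusted p from 0.182 to 0.0548, adjusted p 1.00). After subtraction of the group mean, muscles with the same number correlated at -0.07, 0.20 and -0.32 across all genes, and for that reason the numbers were not taken as pairs. Across the 37 genes alone the correlations were 0.43, 0.48 and 0.27, so whether the numbers mark animals is not settled. With a muscle left out, 31 of 222 such fits changed sign, none with a call: the log2 fold change ranged over Slc2a3 (-0.38 to 0.039), Slc2a4 (-0.16 to 0.036), Hk2 (-0.055 to 0.10), Gpi1 (-0.12 to 0.0088), Pfkm (-0.086 to 0.023), Pfkfb1 (-0.18 to 0.031), Aldoa (-0.13 to 0.025), Tpi1 (-0.30 to 0.026), Gapdh (-0.11 to 0.30), Ldhb (-0.093 to 0.17), Gpd2 (-0.038 to 0.064), Pygb (-0.063 to 0.36), Gys1 (-0.0055 to 0.13), Gyg (-0.11 to 0.0045), Gbe1 (-0.089 to 0.059), Phkb (-0.23 to 0.087), Ugp2 (-0.17 to 0.053), Fbp2 (-0.57 to 0.30) and Ppp1r3a (-0.12 to 0.024). The causes were not tested.

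The low counts of Slc2a1, Slc2a3, Pfkp, Pygb and Pgm1 limit their precision, and the part of shared sequence in the levels of Gapdh, Pgk1 and Eno1 was not tested.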

Other observations

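Among 11 markers of slow and oxidative fibres, Casq2, the calsequestrin of slow and cardiac muscle, was 66.5, 78.8 and 69.99 CPM in control and 48.1, 52.1 and 55.3 CPM in Yap-shRNA muscles, without overlap. Its log2 fold change was -0.47 (standard error 0.10), with unadjusted p = 0.00132 and adjusted p = 1.00 by edgeR. Myl2, the slow myosin light chain, was 2.02, 2.76 and 1.23 CPM in control and 3.27, 3.84 and 3.99 CPM in Yap-shRNA muscles, also without overlap but in the other direction, a log2 fold change of 0.88 (standard error 0.29) with unadjusted p = 0.0139 and adjusted p = 1.00 by edgeR. The 11 markers summed to 3922 to 5054 CPM in control and 3878 to 4927 CPM with Yap-shRNA, and of the 11 log2 fold changes 5 were above and 6 below 0.

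Pgd, the later oxidative step of the pentose phosphate branch after G6pdx, was 20.8, 19.1 and 20.02 CPM in control and 21.1, 22.3 and 25.2 CPM in Yap-shRNA muscles. Slc2a8, an intracellular sugar transporter, was 17.7, 17.6 and 17.3 CPM in control and 15.9, 14.8 and 15.8 CPM in Yap-shRNA muscles. Unadjusted p was 0.104 for Pgd and 0.123 for Slc2a8 by edgeR. Summed markers of regenerating or denervated fibres (8 genes) were 67.8 to 103 CPM in control and 59.4 to 129.7 CPM with Yap-shRNA, and of the 8 log2 fold changes 6 were above and 2 below 0.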
